A study of Bos grunniens with 3 samples.

Results

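PTHLH, NGFR, SEMA3E and SEMA3C are 4 of the 26924 genes measured cell by cell in the hair follicle of the Tianzhu white yak. They were found by their symbols in the gene list of the matrices, under the identifiers ENSBGRG00000002728, ENSBGRG00000023500, ENSBGRG00000021923 and ENSBGRG00000020231, and each had a single row. The skin came from the scapula of healthy animals about 2 years old, and single follicles were pulled out after enzymatic digestion and dissociated. There was 1 library each of anagen (the growth phase of the follicle), catagen (its regression) and telogen (its rest), with no treatment and no genetic change in any group. The paper on the study describes 3 yaks with skin taken in anagen and catagen, and it names no telogen sample. Which animal gave which library is not given in the sources used here. The protocol text of the catagen sample names anagen, but its developmental stage label names catagen, and it was taken as catagen. With 1 library per stage, stage, animal and library cannot be told apart, no p-value is given, and each 95% interval covers counting error only.

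PTHLH encodes parathyroid hormone-related protein, a secreted hormone that acts through the receptor PTH1R and restrains hair growth in mouse skin. NGFR is a cell-surface receptor for neurotrophins such as BDNF and is known from mouse skin for its part in follicle regression. SEMA3E and SEMA3C are secreted class 3 semaphorins, guidance proteins that signal through plexins and neuropilins, SEMA3E through PLXND1.

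The deposited matrices held 12000 cells in anagen, 12124 in catagen and 14573 in telogen, with 82862998, 51647865 and 103511775 UMIs (unique molecular identifiers, each counting 1 captured RNA molecule). Cells with at least 200 genes were kept, which left 11987, 12062 and 14502, with median UMIs of 5256, 3350 and 5584 per cell. The libraries shared 40 to 49 cell barcodes pairwise. The 3 file headers name different Cell Ranger versions (4.0.0, 3.1.0 and 6.0.2), and the smallest anagen cell had 2404 UMIs against 500 in the other libraries, so the processing also differed with stage.

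The kept cells were grouped into 26 clusters without using the 4 genes. Clusters 4, 7 and 14 were HS-like and clusters 0 and 19, with KRT1 and KRT10, were suprabasal-like. HS is the label used in the study for follicle cells with LHX2 and IGFBP5. HS-like cells numbered 1356 in anagen, 2936 in catagen and 1483 in telogen. Of the 8 HS markers, clusters 4 and 14 had 8 raised and cluster 7 had 4 (LHX2, IGFBP5, SFRP1 and CXCL14). Cluster 16 also had 4 raised (LHX2, SFRP1, LGR5 and CXCL14), and clusters 9 and 22 had 3. None of these markers was among the top 10 genes of its cluster, so these clusters were not named HS-like. They stayed unnamed and count as other cells. Suprabasal-like cells numbered 2004, 1676 and 1586.

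Among the named classes, PTHLH, NGFR and SEMA3E were highest in HS-like cells in every library, whereas SEMA3C was highest in suprabasal-like cells. The HS-like values pool clusters 4, 7 and 14, which differed from each other as given below. Levels are given in CPM, the UMIs of a gene for each 1000000 UMIs of the same cells. PTHLH stood at 65.1 CPM in HS-like cells of anagen, 96.8 in catagen and 35.5 in telogen, against 4.23, 2.7 and 2.53 in all other cells. These levels were 15.4-fold (13.3 to 17.8), 35.8-fold (29.5 to 43.9) and 14.0-fold (11.8 to 16.6) higher. NGFR stood at 27.7, 13.9 and 9.97 CPM in HS-like cells against 1.04, 0.746 and 0.67 in the others.

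SEMA3E stood at 164, 211 and 87.3 CPM in HS-like cells against 14.5, 12.0 and 7.04. Thus 3 of the 4 genes were at least 2-fold higher in HS-like cells in each library. Of genes of at least 10 CPM, 8.69% were so in anagen, 7.34% in catagen and 5.77% in telogen. NGFR in telogen, at 9.97 CPM in HS-like cells, fell just under that level. SEMA3C went the other way, at 9.52, 10.2 and 6.86 CPM in HS-like cells against 38.2, 64.6 and 21.6 in the others, and was thus at least 2-fold lower in each library, where 6.66%, 7.27% and 5.48% of genes were. In suprabasal-like cells SEMA3C reached 117, 178 and 75.3 CPM, which was 7.7-fold, 7.0-fold and 6.88-fold above all other cells, a class in which 4.86%, 4.34% and 2.33% of genes were at least 2-fold higher. The 4 genes therefore did not share a compartment.

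**Figure D1:**
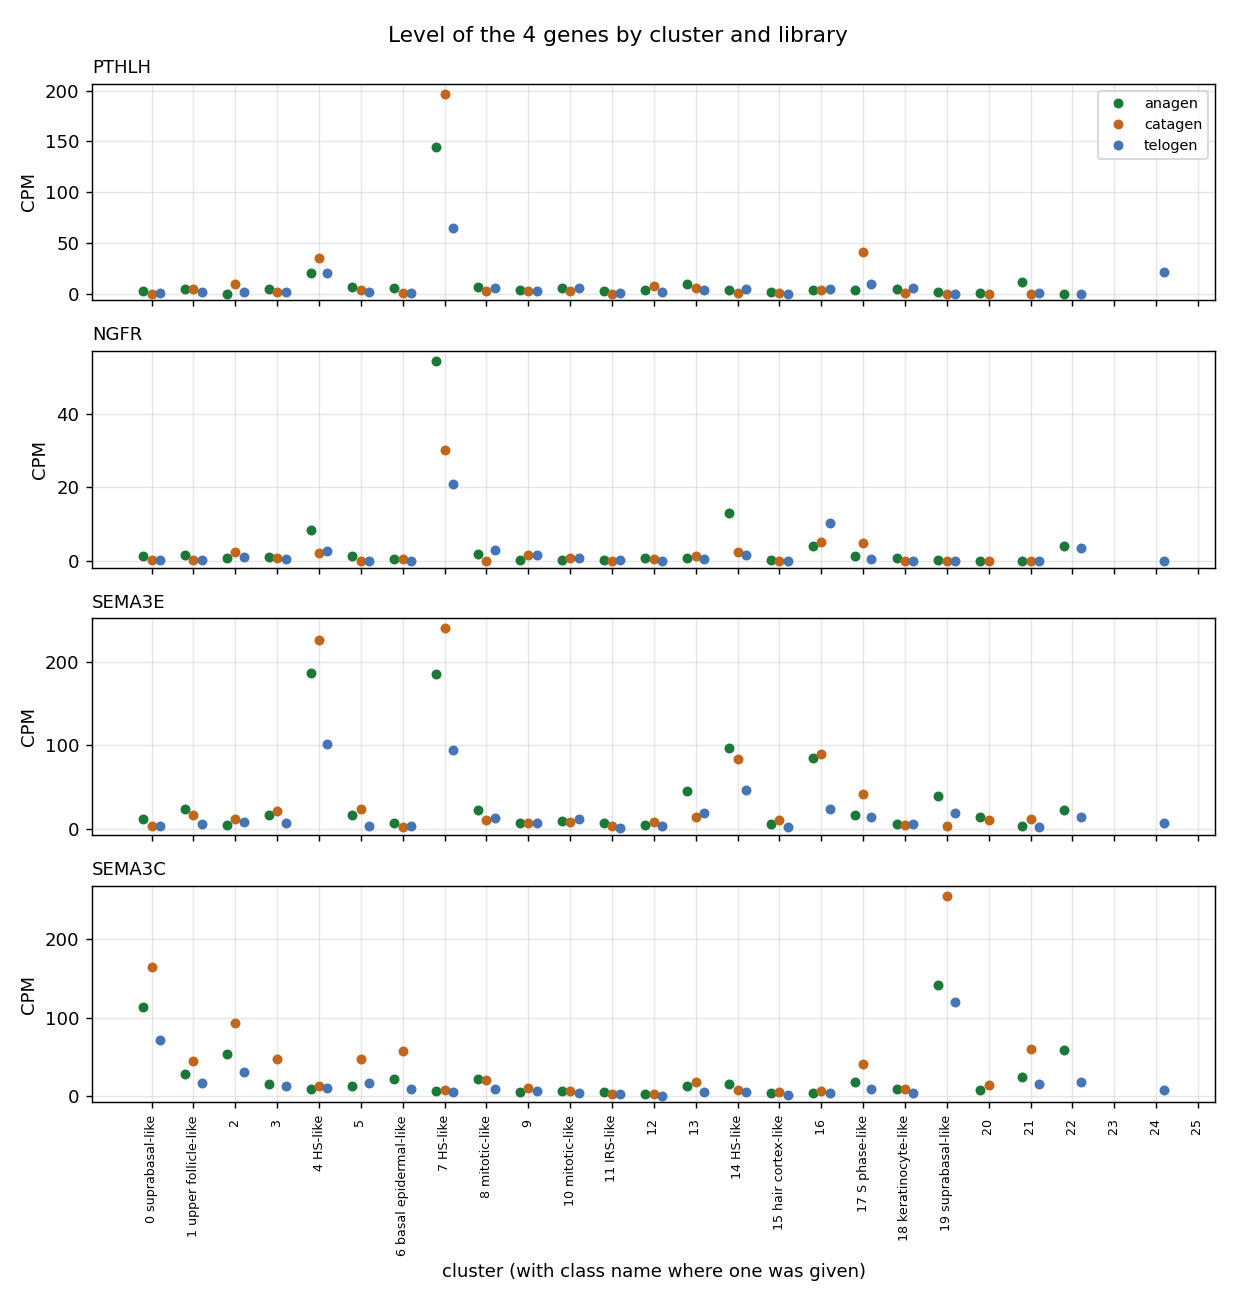
Level of each gene in CPM (linear axis) in the 26 clusters, 1 point per library, for clusters with at least 50 cells in that library. PTHLH and NGFR peak in cluster 7, SEMA3E is about level in clusters 4 and 7, and SEMA3C peaks in clusters 19 and 0.

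Among the clusters with at least 50 cells in a library, PTHLH was highest in cluster 7, at 144, 197 and 65.2 CPM, and the next cluster stood apart from it in all 3 libraries. NGFR was also highest in cluster 7, at 54.3, 30.3 and 20.9 CPM, although in telogen the interval of its log2 ratio to cluster 16 (-0.03 to 2.28) included 0. Cluster 22, not ranked in catagen with 48 cells, held 27.9 CPM of NGFR there from 3 UMIs. Without integration NGFR was highest in unnamed clusters of 57 cells in catagen (24.6 CPM) and 72 cells in telogen (16.7 CPM). These held 1.97% and 3.21% of the NGFR UMIs of their libraries, against 59.9% and 38.5% in the HS-like cluster. With telogen clustered alone, PTHLH and NGFR were highest there in different HS-like clusters. Those had 7.09% and 11.5% of their cells in common with cluster 7. SEMA3E did not differ beyond counting error between cluster 4 (186, 226 and 101 CPM) and cluster 7 (185, 240 and 94.1 CPM). It stood at 96.9, 83.7 and 46.3 CPM in cluster 14 and at 84.2, 89.6 and 23.2 CPM in the unnamed cluster 16. NGFR in cluster 16 stood at 4.21, 5.12 and 10.3 CPM, from 1, 6 and 8 UMIs. SEMA3C was highest in cluster 19, at 141, 255 and 120 CPM, followed by cluster 0 at 114, 165 and 72.0 CPM.

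Cluster 7 stayed mostly together at a finer clustering resolution but was divided at a lower one. At the finer resolution of 1.2, 534, 921 and 477 of its cells fell into a single HS-like cluster. At the lower resolution of 0.4, 742 cells of cluster 7 (178 in anagen, 384 in catagen, 180 in telogen), called subset A, joined cluster 4 in an HS-like cluster. The other 1225 (359, 551 and 315), called subset B, left it, 1062 of them for an unnamed cluster. This division was made after the levels had been seen, and it used no level of the 4 genes. In cluster 7 54.0% of cells fell into a single coarser cluster, against 99.6% in cluster 4, 74.9% in cluster 14 and 45.3% in cluster 13. Any mean over cluster 7 therefore mixes both subsets.

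The subsets differed in their markers, although they were themselves formed by clustering on expression, so the differences are a description. KRT14, a keratin of basal keratinocytes, stood at 4430, 4020 and 8360 CPM in subset A and at 16800, 15300 and 17700 in subset B. KRT5, its partner keratin, went the other way, at 2650, 2890 and 2520 CPM in subset A and 1560, 2340 and 2250 in subset B. LHX2, a transcription factor of follicle progenitors, stood at 388, 350 and 193 CPM in subset A and at 85.9, 105 and 55.3 in subset B. IGFBP5 stood at 883, 902 and 700 CPM in subset A and at 179, 165 and 130 in subset B. The HS markers did not all differ: SPARC stood at 947, 939 and 1320 CPM in subset A and 973, 715 and 1550 in subset B, and LTBP4 at 196, 174 and 79.2 against 175, 130 and 83.1. LGR5 was low in both, at 7.83 to 17.3 CPM in subset A and 3.09 to 8.88 in subset B.

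**Figure D2:**
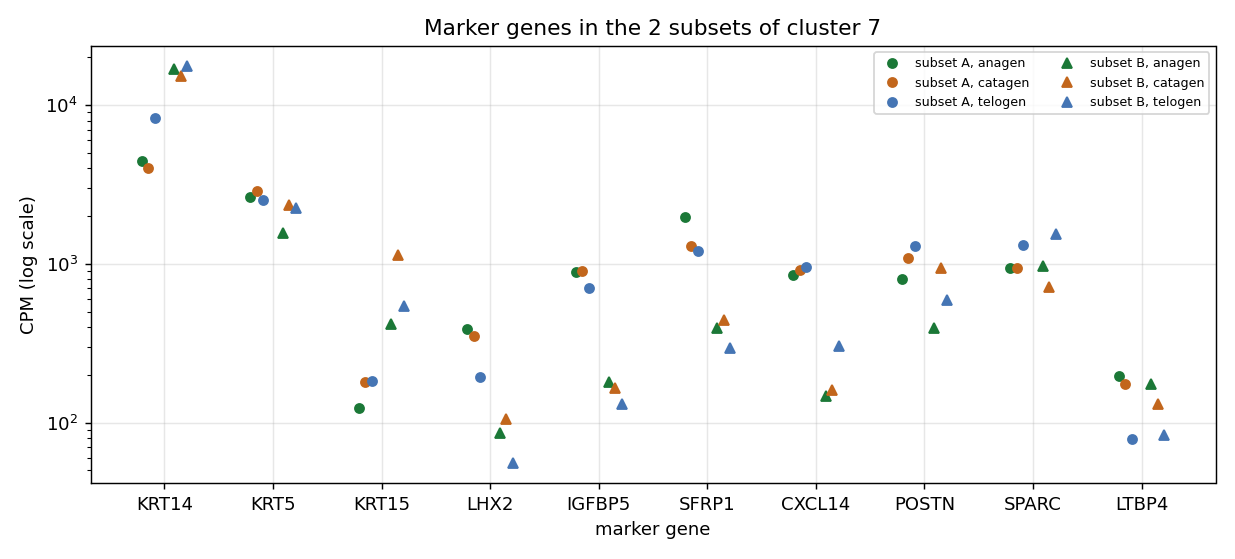
Level of 10 marker genes in CPM (log axis) in both subsets of cluster 7, 1 point per library. KRT14 is lower and LHX2, IGFBP5, SFRP1 and CXCL14 are higher in subset A than in subset B in every library.

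PTHLH stood at 339 CPM (303 to 379) in subset A of anagen, 371 (341 to 403) in catagen and 149 (128 to 172) in telogen. In subset B it stood at 39.4, 64.6 and 24.7 CPM. Subset A thus held 41.3%, 59.8% and 32.7% of the PTHLH UMIs of the libraries in 178, 384 and 180 cells. NGFR stood at 151, 64.6 and 60.0 CPM in subset A and at 2.32, 4.44 and 1.93 in subset B, the latter from 4, 9 and 5 UMIs. Subset A held 52.8%, 65.1% and 48.1% of all NGFR UMIs.

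SEMA3E was less narrow, at 282, 317 and 168 CPM in subset A and 133, 182 and 58.4 in subset B, and subset A held 11.8%, 20.8% and 14.2% of its UMIs. SEMA3C was low in both subsets, between 3.87 and 10.8 CPM.

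After thinning each cell to 1500 UMIs, so that cells of different depth could be set side by side, a PTHLH UMI was found in 39.9% of cells of subset A in anagen (32.6 to 47.5), 33.2% in catagen and 19.1% in telogen. In suprabasal-like cells it was found in 0.399% of anagen cells and 0.064% of telogen cells. It was found in 0 of 1572 suprabasal-like catagen cells, which allows a share of up to 0.191%. This class is itself low in PTHLH, at 0.242, 0.00854 and 0.0847 of the level in all other cells. Over all cells outside the HS-like class, a PTHLH UMI was found in 0.64%, 0.295% and 0.383%. NGFR was found in 10.1%, 8.17% and 10.7% of subset A. Thinning left out no anagen cell, 2263 catagen cells and 2932 telogen cells. Unthinned, 13.0%, 10.9% and 10.2% of HS-like cells held a PTHLH UMI, at median depths of 4076, 2492 and 5030 UMIs, against 1.8%, 0.119% and 0.441% of suprabasal-like cells, which were deeper (7693, 5452 and 8326 UMIs).

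Over whole libraries, PTHLH, SEMA3E and SEMA3C were highest in catagen and lowest in telogen, and NGFR was not higher in catagen. Over all kept cells, PTHLH stood at 9.18, 18.5 and 5.5 CPM in anagen, catagen and telogen, from 760, 952 and 569 UMIs. Catagen was 2.01-fold (1.83 to 2.22) above anagen, which made PTHLH the only member at least 2-fold higher, where 4.41% of genes were. The interval includes ratios under 2, and 4 of the 5 alternatives put the log2 ratio under 1 (0.73 to 0.96). SEMA3E stood at 26.6, 45.4 and 14.3 CPM and SEMA3C at 35.9, 55.5 and 20.2 CPM, with catagen 1.7-fold and 1.55-fold above anagen. NGFR stood at 3.2, 2.95 and 1.51 CPM, below the 10 CPM asked of the background genes.

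Telogen was lower than catagen at least 2-fold for 3 of the 4 genes, where 12.0% of genes were: the ratios were 0.298 for PTHLH, 0.315 for SEMA3E and 0.364 for SEMA3C, and 0.511 for NGFR. Against anagen, telogen was at least 2-fold lower for NGFR (0.471), where 7.83% of genes of at least 10 CPM, a level NGFR did not reach, were, and the other ratios were 0.536 to 0.599. With median-of-ratios scaling and with the mean of each cell's CPM, NGFR was less than 2-fold lower (log2 ratios of -0.82 and -0.95), and with the latter PTHLH stood at -1.0. Over genes found in both libraries the median log2 ratio was 0.28 for catagen over anagen, -0.26 for telogen over anagen and -0.51 for telogen over catagen, and over genes of at least 10 CPM it was 0.05, -0.18 and -0.25. Relative to the first set of medians, the log2 ratio of catagen over anagen was 0.73 for PTHLH, 0.49 for SEMA3E and 0.35 for SEMA3C. HS-like cells made up 11.3% of anagen, 24.3% of catagen and 10.2% of telogen cells, and the part of these shares in the whole-library levels was not tested. Fewer cells of a type and less RNA per cell cannot be told apart in those levels. The shares also rest on unlike minimum depths, as the smallest anagen cell had 2404 UMIs against 500 in the other libraries. In catagen the median was 2492 UMIs in HS-like cells and 2035 in cluster 4, the latter under the anagen minimum.

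**Figure D3:**
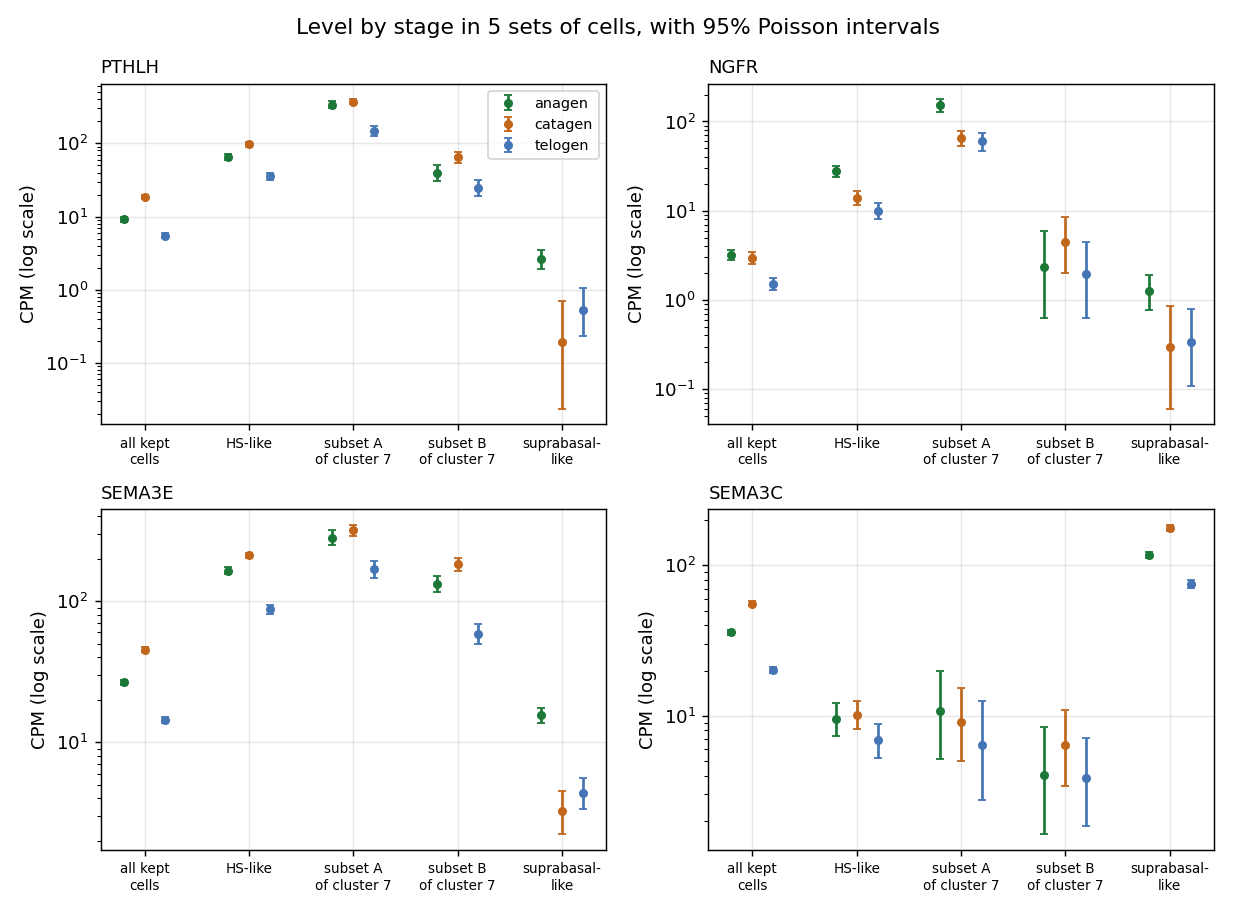
Level of each gene in CPM (log axis) by stage in 5 sets of cells, with exact 95% Poisson intervals. For PTHLH, catagen lies above anagen over all kept cells but the intervals overlap in subset A of cluster 7, and for NGFR anagen lies highest in HS-like cells and in subset A.

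The ratios by stage were then taken within the cells of each compartment, without a matched minimum of UMIs per cell. In subset A, PTHLH in catagen was 1.1-fold that of anagen (0.953 to 1.26), an interval that includes no difference, against 1.64-fold (1.21 to 2.23) in subset B and 1.49-fold (1.32 to 1.67) in all HS-like cells. SEMA3E in catagen was 1.13-fold that of anagen in subset A (0.966 to 1.31), 1.37-fold in subset B (1.16 to 1.62) and 1.29-fold in all HS-like cells (1.19 to 1.39). The NGFR level in subset A was lower in catagen than in anagen, at a ratio of 0.427 (0.327 to 0.557), and in HS-like cells at 0.502 (0.396 to 0.635). In thinned cells of subset A the share with an NGFR UMI had overlapping intervals. It was 10.1% (6.1 to 15.5) in anagen, 8.17% (5.54 to 11.5) in catagen and 10.7% (6.55 to 16.2) in telogen. In cluster 7, 144 NGFR UMIs came from 53 anagen cells, 108 from 73 catagen cells and 80 from 42 telogen cells. The intervals of the ratios treat UMIs of the same cell as independent. Outside HS-like cells, catagen was lower than anagen for PTHLH (0.639, 0.512 to 0.792) and SEMA3E (0.827, 0.744 to 0.919). There SEMA3C was higher in catagen (1.69-fold, 1.6 to 1.78), and for NGFR the interval included no difference (0.718, 0.461 to 1.1).

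The level in telogen was lower than in anagen in subset A for all 3 genes, with ratios of 0.439 for PTHLH, 0.397 for NGFR and 0.596 for SEMA3E. For NGFR the share of thinned cells with a UMI was again not lower beyond counting error. NGFR in subset A did not differ beyond counting error between telogen and catagen (0.929, 0.678 to 1.27). SEMA3C in suprabasal-like cells was 1.51-fold higher in catagen than in anagen (1.42 to 1.62) and 0.642 of anagen in telogen (0.596 to 0.691), in the same order of stages as over all kept cells. Suprabasal-like cells of anagen also had higher levels of the other genes than those of catagen and telogen. SEMA3E stood there at 15.5, 3.24 and 4.36 CPM, from 259, 33 and 65 UMIs. PTHLH stood at 2.63, 0.196 and 0.537 CPM, from 44, 2 and 8 UMIs.

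Single cells were then examined for UMIs of more than 1 of the genes. Over all kept cells, thinned to 1500 UMIs, PTHLH and NGFR were found together in 10, 13 and 8 cells, 13.6-fold (6.52 to 25.0), 13.5-fold (7.21 to 23.2) and 25.9-fold (11.2 to 51.1) the product of their separate shares. PTHLH and SEMA3E were found together in 42, 75 and 15 cells, 5.11-fold, 4.78-fold and 5.55-fold the product. NGFR and SEMA3E were found together in 11, 12 and 6 cells, 4.54-fold, 3.55-fold and 6.85-fold the product. Of the 18 combinations of pair and library, 9 lay above the product and 3 below it, each of the 3 with SEMA3C. Without thinning the counts were also 9 and 3, but the combinations below it were not all the same. SEMA3E and SEMA3C in telogen, below it with thinning, were then within counting error (0.939-fold). PTHLH and SEMA3C in anagen were then below it (0.705-fold). Doublets were left in. With the highest 5% of doublet scores of Scrublet removed the counts were again 9 and 3. Scrublet called 0 doublets, so its scores may not mark them, and the part of doublets in these counts was not tested.

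Sharing a compartment is enough to place a pair above the product, so the comparison was repeated in narrower sets. In thinned cells, NGFR and SEMA3E were within counting error of the product in the HS-like class (1.32-fold, 1.15-fold and 1.46-fold). PTHLH and SEMA3E lay above it there in catagen alone (1.45-fold, 1.13 to 1.82) and in no library in cluster 7. Without thinning, where cells differ in depth, both pairs lay above the product in every library in both sets. NGFR and SEMA3E then stood at 1.55-fold, 1.85-fold and 1.93-fold in HS-like cells. PTHLH and SEMA3E then stood at 1.52-fold, 1.31-fold and 1.7-fold in cluster 7. With thinning, PTHLH and NGFR were still at 4.04-fold, 3.97-fold and 6.95-fold in HS-like cells, and in cluster 7 at 2.98-fold (1.44 to 5.44), 2.27-fold (1.21 to 3.87) and 4.58-fold (1.99 to 8.96). Within subset A the excess was no longer beyond counting error: 9 cells held both against 7.18 from the product in anagen (1.25-fold, 0.58 to 2.33), 13 against 9.64 in catagen (1.35-fold, 0.723 to 2.28) and 8 against 3.63 in telogen (2.2-fold, 0.961 to 4.25). PTHLH and SEMA3E were at 0.895-fold, 1.06-fold and 0.638-fold there. The value over cluster 7 is a value over both subsets. At 8 to 13 cells with both genes, a smaller excess in subset A was not detectable at this depth. In catagen the interval of subset A, up to 2.28-fold, also included the 2.27-fold value of cluster 7. The intervals of subset A and cluster 7 overlapped in every library, and subset A is part of cluster 7. A lower excess in subset A than in cluster 7 is therefore not shown.

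**Figure D4:**
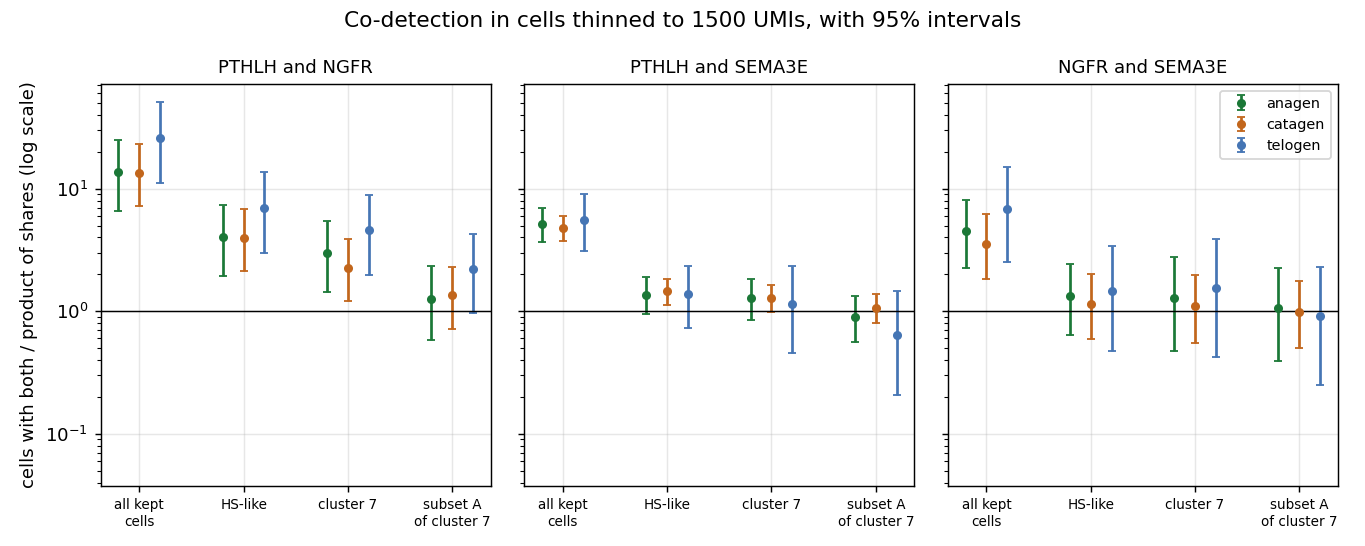
Cells with a UMI of both genes, as a multiple of the product of the separate shares (log axis, line at 1), in 4 nested sets of cells thinned to 1500 UMIs, with exact 95% intervals. PTHLH and NGFR lie above 1 in all kept cells, HS-like cells and cluster 7, while in subset A every interval includes 1.

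Over 68 profiles of a cluster in a library, the level of PTHLH was most like those of ENPP1 (Pearson r = 0.796 on log2(CPM + 10)), NGFR (0.788), SEMA3E (0.681), PTPRD (0.652) and TENM4 (0.615). ENPP1, an ectoenzyme that forms pyrophosphate, stood at 73.2, 55.6 and 48.7 CPM in cluster 7. The same genes besides itself were most like NGFR. SEMA3E was most like PTPRD (0.831), a receptor phosphatase, then ISM1, CYS1, IGFBP5 and FAM13A. SEMA3C was most like FMO5 (0.861), EXPH5, SLC47A2, SNCB and NR1D1, and its r with PTHLH was -0.204. The profiles share libraries and depth, so these values are a description.

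Of 30 listed receptors, ligands and relatives of the 4 genes, 26 were matched by symbol, and PLXND1, NRP1, BEX3 and TRAF6 were not analysed here. The receptor of PTHLH was scarce: PTH1R had 8, 2 and 3 UMIs in the libraries, 6 of the 13 in cluster 22, which mesenchymal and endothelial genes lead. PTH2R had 0, 3 and 1 UMIs, and PTH none. Follicles were pulled out of the skin, and cluster 22 held 104, 48 and 51 cells.

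Among the ligands of NGFR reported here, BDNF stood at 4.83, 13.5 and 5.21 CPM, above NTF3 at 1.14, 0.679 and 1.21 CPM and NTF4 at 0.869, 3.03 and 1.16 CPM. BDNF was highest in cluster 7 in each library, at 36.2, 47.5 and 31.5 CPM, and stood at 71.3, 54.2 and 47.2 CPM in subset A and 17.4, 42.4 and 24.0 CPM in subset B. BDNF and NGFR were found in the same thinned cell 1, 2 and 2 times, with intervals that include the product. NTRK2, a signalling receptor of BDNF, was led by clusters 3, 5 and 6, and cluster 6, basal epidermal-like, held 29.0, 64.9 and 30.1 CPM. In cluster 7 NTRK2 stood at 24.5, 12.1 and 18.8 CPM, against 12.8, 18.6 and 13.4 in all other cells. It was thus higher there in anagen and telogen and lower in catagen.

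Receptors of the semaphorins were led by several clusters. NRP2, a neuropilin, was highest in cluster 12, an unnamed cluster led by DCN, FABP7 and DPP4 that also holds raised MCM5 and MCM2, at 111 and 91.2 CPM in anagen and telogen and at 159 in catagen. PLXNA2 stood at 100, 114 and 69.6 CPM in the IRS-like cluster 11 and at 85.1, 121 and 38.1 CPM in cluster 14, which is HS-like. PLXNA4 was highest in cluster 19, where SEMA3C was also highest, at 18.5, 34.2 and 13.6 CPM. By stage, 1 of 6 list genes of at least 10 CPM was at least 2-fold higher in catagen than in anagen (BDNF, 2.8-fold, 2.47 to 3.17) and 0 were lower, where 4.41% and 3.47% of genes were. Telogen was at least 2-fold lower than anagen for 2 of 5 (PLXNA2 and NRP2), where 7.83% of genes were, and than catagen for 3 of 6 (these and BDNF), where 12.0% were. With median-of-ratios scaling each of these counts fell to 1.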

How the data were processed

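Single cells of 3 libraries were captured with the 10x Genomics 3' protocol. The authors deposited raw UMI counts per gene and cell, made with Cell Ranger. The labels name version 2.1.1 and the file headers 4.0.0, 3.1.0 and 6.0.2, and the genome build is not given in the sources used here. Cells with at least 200 genes were integrated over the 3 libraries with Seurat 5.3.0 anchors in R 4.3.3 (1996 variable genes without the 4 genes, 30 components, resolution 0.8). A cluster was named where at least 3 markers of a list were at least 1.5-fold raised and 1 of them was among its top 10 genes. Ties, and clusters led by ELOVL3 or DCN, stayed unnamed, a rule set after the clusters had been seen. UMIs were summed and divided by the summed total (CPM), with exact Poisson intervals for levels, exact conditional intervals for ratios and Clopper-Pearson intervals for shares, at 95%. A zero was given the limit of 3 counts. UMIs corrected by Cell Ranger count molecules, and intervals cover counting error only. Scrublet in scanpy 1.11.5 called 0 doublets, so it did not work here and doublets were left in. The genes named are the 4, the pathway genes with at least 10 CPM in a library, and the 5 genes most alike to each by Pearson correlation among 3922 genes. Others of the pathway lists, the markers of cluster 7 and the division of cluster 7 into subsets A and B were chosen after values had been seen. The members and lists were chosen with earlier results of these data known. The interval and co-detection steps were tested on simulated data. A ligand gene of the pathway lists is not reported here.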

Additional observations from a re-analysis of the deposited data

How the results depend on the processing

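No paired analysis was possible because each stage has 1 library and the labels give no replicate numbers, and no library could be left out for the same reason. None of the alternatives reversed a direction. Over all alternatives 75 values stayed within their counting interval (counts within 1.5 times) and 46 moved, and the cause of the moves was not tested. With median-of-ratios scaling the log2 ratio of catagen over anagen was 0.73 for PTHLH, 0.49 for SEMA3E and 0.35 for SEMA3C (PTHLH thus under 2-fold), that of telogen over anagen -0.48, -0.64 and -0.57, and that of telogen over catagen -1.24, -1.16 and -0.95, with -0.46 for NGFR. With the mean of each cell's CPM, catagen over anagen was 0.86, 0.91 and 0.50 for PTHLH, SEMA3E and SEMA3C, telogen over anagen -1.0 for PTHLH and -0.52 for SEMA3C, and telogen over catagen -1.90 for SEMA3E and -1.02 for SEMA3C. With at least 1000 genes per cell, SEMA3E was 0.38 and -1.31 for catagen over anagen and telogen over catagen, and SEMA3C 0.74, -0.93 and -1.67 for catagen over anagen, telogen over anagen and telogen over catagen. Requiring the smallest anagen UMI total of every cell gave 0.52 and -1.44 for SEMA3E and -1.56 for SEMA3C in telogen over catagen. The median log2 ratio of HS-like over other cells was 4.35 for PTHLH and -2.43 for SEMA3C with telogen clustered alone, and 3.43 for NGFR without integration. That of SEMA3C in suprabasal-like cells was 2.53 at resolution 0.4, 1.87 without integration, where the class held 52 anagen and 4 catagen cells and was thus lost in both libraries, and 2.95 with at least 1000 genes per cell. Kept to cells that were HS-like at resolutions 0.8 and 0.4 both, an alternative chosen after seeing the data, the HS-like medians were 4.10, 4.28, 3.54 and -2.06 for PTHLH, NGFR, SEMA3E and SEMA3C. Thinned to 3000 UMIs, 6 combinations lay below the product. For the pathway genes, a 1.5-fold ratio gave 2 higher in catagen over anagen, and median-of-ratios scaling gave 1 lower in telogen over anagen and 1 in telogen over catagen. With no minimum level the counts higher and lower were 4 and 3, 1 and 11, and 2 and 14 in the order catagen over anagen, telogen over anagen and telogen over catagen. By Spearman correlation 0, 1, 0 and 3 of the 5 most alike genes of PTHLH, NGFR, SEMA3E and SEMA3C were shared, so the likeness lists depend on that choice.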
